A study of Mus musculus with 8 samples.

Results

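The genes described here encode the proteasome, its activators, its assembly chaperones and its inhibitor. They were chosen by symbol: a gene of the count table was taken when it was protein coding and its symbol began with Psm, followed by one of the letters a to g and a number. This rule found 50 of the 31053 genes in the table. One of them, Psmc3ip, matches by its symbol alone and encodes a partner of a DNA recombinase rather than a proteasome subunit. Of the 50, 5 belong to the immunoproteasome (Psmb8, Psmb9, Psmb10, Psme1 and Psme2), and 42 are here called constitutive. The other 3 are Psmc3ip, the germline subunit Psma8 and the thymus subunit Psmb11.

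The proteasome degrades proteins that carry ubiquitin chains. Its 20S core is a barrel of stacked rings, with outer rings of alpha subunits that gate the entry and inner rings of beta subunits, of which Psmb5, Psmb6 and Psmb7 cut peptide bonds. A 19S cap, built of a base with a ring of ATPases and of a lid that removes ubiquitin, recognises, unfolds and threads the substrate. In cells exposed to interferon gamma, and constitutively in many immune cells, Psmb8, Psmb9 and Psmb10 take the places of Psmb5, Psmb6 and Psmb7, and an 11S ring of Psme1 and Psme2 can bind in place of the cap, which favours peptides that fit MHC class I molecules. In brown adipocytes, the transcription factor Nfe2l1 drives the genes of the constitutive subunits and is needed for thermogenic adaptation.

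Bulk RNA-seq was carried out on brown adipose tissue (BAT) of 4 WT mice and 4 Ucp1Δ/Δ mice, the latter labelled ATGLKO, all of strain C57BL6/J and 10 weeks of age per the labels and male per the study's methods. The study's figure legend gives a younger age for these mice. Ucp1Δ/Δ mice carry floxed Pnpla2, the gene for the lipase ATGL, together with a Cre recombinase driven by the Ucp1 promoter, so that the gene is lost in UCP1+ thermogenic adipocytes and kept in the other cells of the tissue. The labels name no Cre or flox allele in the WT mice, so the effect of the deletion and that of the transgenes themselves cannot be told apart. The labels also give stromal vascular fraction as the cell type, which would lack mature adipocytes, yet brown adipocyte markers were abundant, and the libraries were taken as BAT.

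Library totals ranged from 2017697 to 3115956 counts, and a floor of 3 counts corresponded to 0.934 to 1.53 CPM (counts scaled to library size, with TMM factors throughout). Mitochondrially encoded genes took 38.4% to 45.6% of the counts and the 50 proteasome genes 0.397% to 0.489% in WT and 0.406% to 0.439% in Ucp1Δ/Δ mice. Pnpla2 was 2837, 2701, 2961 and 3152 CPM in WT replicates 1 to 4 and 514, 448, 403 and 531 CPM in Ucp1Δ/Δ replicates 1 to 4. The genotypes did not overlap, and the log2 fold change (log2FC, Ucp1Δ/Δ over WT) was -2.62 (SE 0.17, edgeR quasi-likelihood test, Benjamini-Hochberg adjusted p = 1.97e-07).

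The cell composition of the tissue differed between the genotypes. The summed level of 10 macrophage markers was 105 to 166 CPM in WT and 1003 to 1650 CPM in Ucp1Δ/Δ mice, and 9 of the 10 were higher. All 8 pan-leukocyte markers were higher, with sums of 22.4 to 47.5 CPM against 253 to 453 CPM, as were 5 of 6 markers of antigen-presenting cells, the sixth being too low to test. Of 10 brown adipocyte markers 4 were lower and 1 was higher, and their summed level in Ucp1Δ/Δ mice was 64.7% of that in WT. Markers of T or NK cells (3.67 to 12.1 CPM against 9.44 to 16.6 CPM), B cells (at most 1.29 CPM, with Cd79a at 0 counts) and neutrophils (at most 7.62 CPM, with Ly6g at 0 counts) were too low to test. Of 6 fibroblast or progenitor markers 5 were higher, of 6 endothelial markers 1 was higher, and the 6 skeletal muscle markers, from 15 to 1177 CPM in WT and from 46.8 to 1552 CPM in Ucp1Δ/Δ mice, varied within both genotypes with no call. Immunoproteasome genes are expressed at their highest in leukocytes, so these values stand beside every result given here, and their part in those results was not tested. In bulk tissue, fewer cells of a type and less RNA per cell cannot be told apart.

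Of the 50 genes, 46 had enough counts to be tested. The 4 others were Psma8 with 1 count over all 8 mice, Psmb11 with none, Psmc3ip with 6 and the Psme2 paralog Psme2b with 17. At an adjusted p under 0.05, 1 tested gene was higher in Ucp1Δ/Δ BAT and 7 were lower, whereas 13.3% of the 8930 genes tested were higher and 7.63% were lower (21% in either direction). The 7 lower genes are 15.2% of the 46, above the background in this fit, and the single higher gene is 2.17% of them, below it. The share of lower genes did not stay above the background: it was 2.17%, against 4.46% of all genes, without Ucp1Δ/Δ replicate 2, 4.35%, against 5.56%, without Ucp1Δ/Δ replicate 3, and 2.17%, against 4.52%, with libraries scaled by their totals alone. Most of the 46 moved by little: 39 had a log2FC below 0, against 50.7% of all genes tested, and their median was -0.25, against -0.0087 for all genes. When libraries were scaled by their totals alone, the median of all genes moved to 0.13 and higher genes went from 63.6% to 78.5% of all calls. The constitutive genes then had a median of -0.12, with 28 of 41 below 0 rather than 37. Their distance from the median of all genes was -0.25 under both scalings. This is no check, since a change of scaling moves all genes by nearly the same amount. The calls under that scaling were 1 gene lower and 2 higher (Psmb10 and Psmd8), against 4.52% and 16.6% of all genes.

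**Figure D1:**
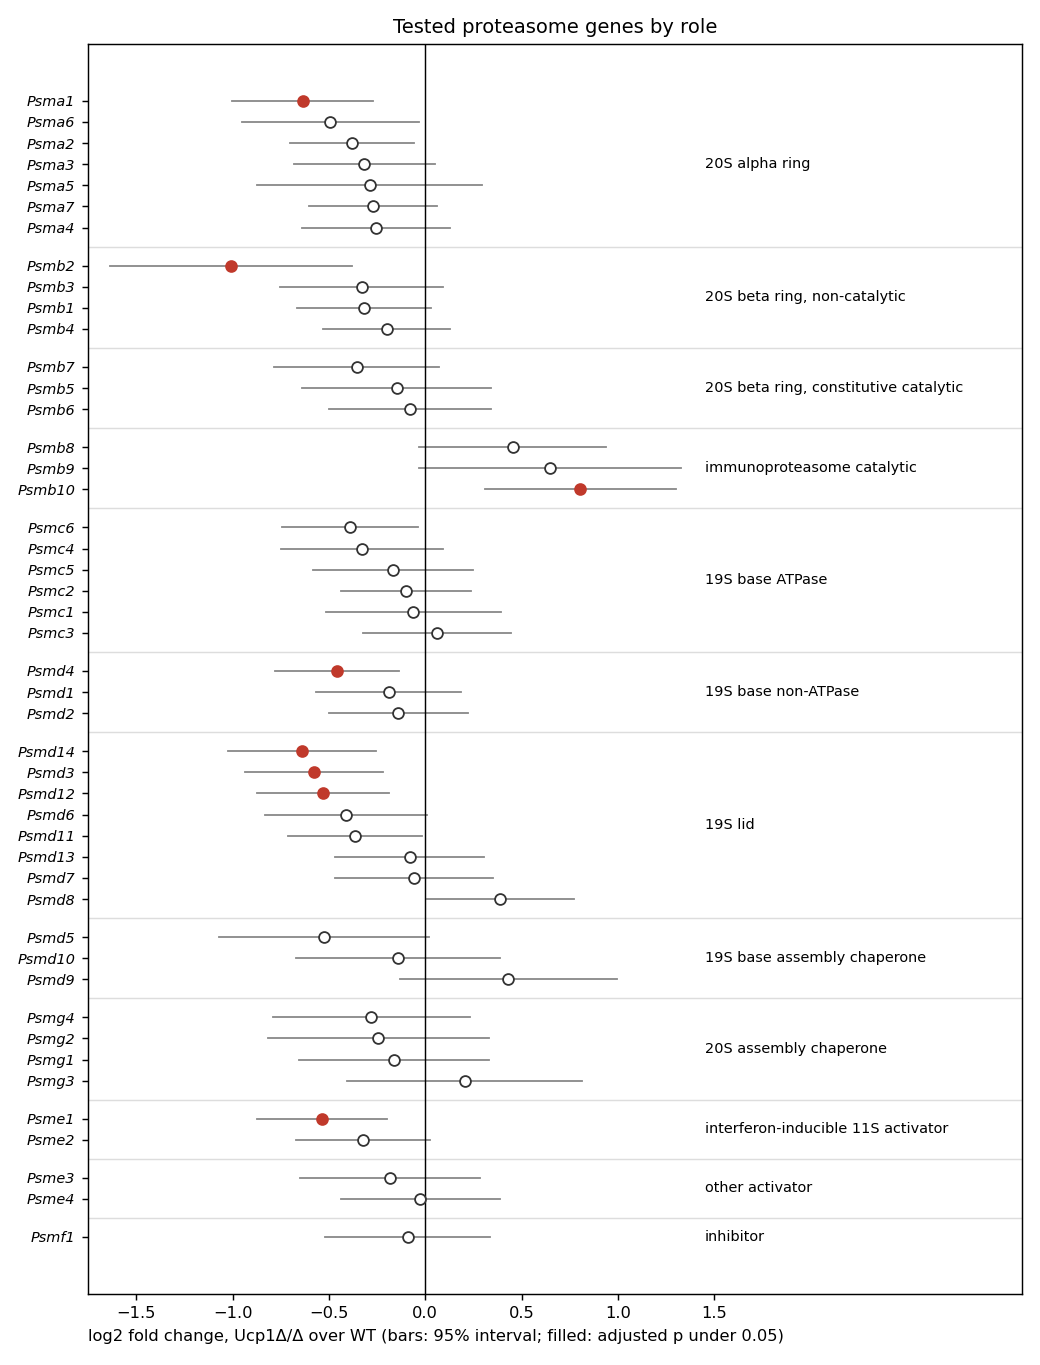
Log2 fold change (Ucp1Δ/Δ over WT) of the 46 tested proteasome genes, grouped by role, with 95% intervals. Filled points passed the test (adjusted p under 0.05): Psmb10 lies above 0, and Psma1, Psmb2, Psmd3, Psmd4, Psmd12, Psmd14 and Psme1 lie below 0.

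The immunoproteasome genes did not move as a block. All 3 catalytic subunits had a log2FC above 0 and both 11S activator subunits one below 0. Of the 5, Psmb10 was higher (20%, against 13.3% of all genes) and Psme1 was lower (20%, against 7.63%). The other 3 were not called, and with 5 genes such counts do not set the group apart from all genes. Psmb8 and Psmb9 lie in the MHC class II region of chromosome 17, together with the peptide transporter genes Tap1 and Tap2, and Psme1 and Psme2 are neighbours on chromosome 14, 5911 bases apart. Psmb10 stands alone on chromosome 8 (mm10, 105935735 to 105938444). Promoter windows are given first, from 250 bases before to 50 bases after the RefSeq start of each gene. They are those of Psmb10, Psmb8, Psmb9 and Psme1, but not Psme2, and of 2 constitutive counterparts. Capitals mark matches, on either strand, to GAAANNGAAA (the interferon-stimulated response element), TTCNNNGAA (the gamma-activated site), TGACNNNGC (the antioxidant response element, which Nfe2l1 also binds) and CCAAT (the CCAAT box).
Psmb10 (GRCm38.p6, chr8:105938343-105938642, minus strand): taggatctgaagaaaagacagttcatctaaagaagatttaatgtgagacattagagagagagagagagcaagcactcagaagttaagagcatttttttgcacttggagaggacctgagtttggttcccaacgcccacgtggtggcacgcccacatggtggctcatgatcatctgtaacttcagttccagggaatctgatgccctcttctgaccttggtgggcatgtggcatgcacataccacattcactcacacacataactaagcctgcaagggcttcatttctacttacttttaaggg
Psmb8 (GRCm38.p6, chr17:34197945-34198244, plus strand): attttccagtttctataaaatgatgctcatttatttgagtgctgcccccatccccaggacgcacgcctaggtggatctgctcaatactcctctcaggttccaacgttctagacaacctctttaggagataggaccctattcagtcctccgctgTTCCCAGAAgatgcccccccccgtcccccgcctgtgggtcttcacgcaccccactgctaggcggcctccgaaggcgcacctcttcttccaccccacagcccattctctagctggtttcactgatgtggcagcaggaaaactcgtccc
Psmb9 (GRCm38.p6, chr17:34187281-34187580, minus strand): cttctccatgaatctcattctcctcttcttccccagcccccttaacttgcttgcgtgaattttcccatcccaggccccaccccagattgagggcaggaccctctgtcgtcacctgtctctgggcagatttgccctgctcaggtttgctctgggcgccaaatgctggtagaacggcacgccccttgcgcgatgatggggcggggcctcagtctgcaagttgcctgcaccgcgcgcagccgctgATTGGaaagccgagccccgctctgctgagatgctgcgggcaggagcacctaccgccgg
Psme1 (GRCm38.p6, chr14:55578244-55578543, plus strand): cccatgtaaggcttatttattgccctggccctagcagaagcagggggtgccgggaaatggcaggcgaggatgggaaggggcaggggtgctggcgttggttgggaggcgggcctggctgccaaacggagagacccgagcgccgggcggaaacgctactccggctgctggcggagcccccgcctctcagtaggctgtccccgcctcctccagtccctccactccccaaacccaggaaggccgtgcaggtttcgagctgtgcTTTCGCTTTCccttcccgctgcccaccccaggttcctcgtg
Psmb5 (GRCm38.p6, chr14:54617946-54618245, minus strand): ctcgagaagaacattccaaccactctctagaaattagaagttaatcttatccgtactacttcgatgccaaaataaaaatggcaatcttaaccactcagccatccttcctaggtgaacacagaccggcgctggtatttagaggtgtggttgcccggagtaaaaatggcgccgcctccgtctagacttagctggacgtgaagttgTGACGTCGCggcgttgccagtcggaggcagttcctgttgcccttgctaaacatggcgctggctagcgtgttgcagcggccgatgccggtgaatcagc
Psmb6 (GRCm38.p6, chr11:70525107-70525406, plus strand): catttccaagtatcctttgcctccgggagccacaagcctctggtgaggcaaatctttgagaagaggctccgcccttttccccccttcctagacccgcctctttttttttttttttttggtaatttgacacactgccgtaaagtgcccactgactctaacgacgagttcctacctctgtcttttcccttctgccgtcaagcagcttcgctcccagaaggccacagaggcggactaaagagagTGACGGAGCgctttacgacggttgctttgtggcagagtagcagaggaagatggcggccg

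The window of Psmb10, the only gene of the 46 that was higher, held none of the 4 motifs, but whether this window is the main promoter of the gene is not known here. Those of Psmb8, Psmb9 and Psme1 lie wholly inside the annotated genes (chr17:34197721-34201454, chr17:34181987-34187764 and chr14:55578123-55581529). Whether they are main promoters is not known here either. The Psmb8 window held a gamma-activated site starting 97 bases before the RefSeq start. That of Psme1 held an interferon-stimulated response element 10 bases after it, and that of Psmb9 a CCAAT box 8 bases before it. Psmb5 and Psmb6 each held an antioxidant response element, 47 and 9 bases before the start. No match in these 6 windows overlapped another. The windows of Psme2, which are not printed, held none of the 4 motifs. Among 32851 windows of all genes, 3.44% held the interferon-stimulated response element, 8.3% the gamma-activated site, 12.4% the antioxidant response element and 37.4% the CCAAT box. RefSeq gave 45 windows for 42 of the 50 genes, and 5, 3, 6 and 15 of these windows held the respective motif. The interferon-stimulated response element was found in Psmb3, Psmd4, Psmd9, Psme1 and Psmg4, of which Psmd4 and Psme1 were lower and the other 3 were not called. These are matches of letters, and binding was not measured.

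Psmb10, the trypsin-like subunit that replaces Psmb7, was 13.8, 28.2, 24.7 and 25.3 CPM in WT replicates 1 to 4 and 48.5, 38.3, 46.0 and 28.8 CPM in Ucp1Δ/Δ replicates 1 to 4. The lowest Ucp1Δ/Δ mouse, replicate 4, lay just above the highest WT mouse, replicate 2, and WT replicate 1 stood below the other WT mice. The mean was 23.0 ± 6.35 CPM in WT and 40.4 ± 8.87 CPM in Ucp1Δ/Δ mice (SD, n = 4 each), and the log2FC was 0.80 (SE 0.23, edgeR quasi-likelihood test, Benjamini-Hochberg adjusted p = 0.0225). This call rested on single libraries. Without WT replicate 1 the adjusted p was 0.0700, without Ucp1Δ/Δ replicate 1 it was 0.0682 and without Ucp1Δ/Δ replicate 3 it was 0.0551 (edgeR; range over all alternatives 0.00604 to 0.0700), while the log2FC stayed between 0.62 and 0.94 with any one mouse left out.

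Psmb8, the chymotrypsin-like subunit that replaces Psmb5, was 18.4, 21.9, 16.4 and 29.9 CPM in WT replicates 1 to 4. In the Ucp1Δ/Δ replicates it was 31.8, 31.1, 33.4 and 21.0 CPM. Ucp1Δ/Δ replicate 4 was within the WT range and the other 3 Ucp1Δ/Δ mice were above it, giving a log2FC of 0.45 (95% interval -0.031 to 0.94, edgeR adjusted p = 0.181). Psmb9, which replaces Psmb6, had the fewest counts of these genes, 8 to 18 per WT mouse and 15 to 34 per Ucp1Δ/Δ mouse. Its levels were 8.16, 3.58, 6.01 and 4.05 CPM in WT and 7.43, 10.6, 9.61 and 6.44 CPM in Ucp1Δ/Δ mice. The genotypes overlapped through WT replicate 1, and the interval of the log2FC of 0.65 ran from -0.032 to 1.33 (edgeR adjusted p = 0.174). For both genes, intervals reach from about no difference to a rise as large as that of Psmb10. Exons of Psmb9 overlap those of Tap1 on the opposite strand, and the whole annotated genes share 212 bases. Exons of Psmb8 overlap those of Gm20496, also on the opposite strand. Since the strand setting of the counting is not given in the sources used here, reads of such pairs may not have been told apart.

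The 11S subunits lay on the other side of 0. Psme1, the alpha subunit of the ring, was 120, 120, 109 and 110 CPM in WT replicates 1 to 4 and 74.3, 75.0, 74.0 and 93.1 CPM in Ucp1Δ/Δ replicates 1 to 4. Every Ucp1Δ/Δ mouse was below every WT mouse, and Ucp1Δ/Δ replicate 4 stood above the other Ucp1Δ/Δ mice. The mean was 115 ± 6.26 CPM in WT and 79.1 ± 9.37 CPM in Ucp1Δ/Δ mice (SD, n = 4 each), and the log2FC was -0.54 (SE 0.16, edgeR quasi-likelihood test, Benjamini-Hochberg adjusted p = 0.0241). The call was lost without WT replicate 1 (adjusted p = 0.0588) or without Ucp1Δ/Δ replicate 1 (0.0709), 2 (0.0812) or 3 (0.0750), by edgeR in each case, and also with scaling by totals alone (0.0934, range over all alternatives 0.00199 to 0.0934). Psme2, the beta subunit, was 49.5, 44.8, 52.8 and 46.1 CPM in WT and 37.2, 38.9, 44.3 and 34.3 CPM in Ucp1Δ/Δ mice. Its genotypes did not overlap either, but the log2FC of -0.32 did not pass (95% interval -0.67 to 0.026, edgeR adjusted p = 0.187). Exons of Psme1 overlap those of Emc9 on the opposite strand.

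**Figure D2:**
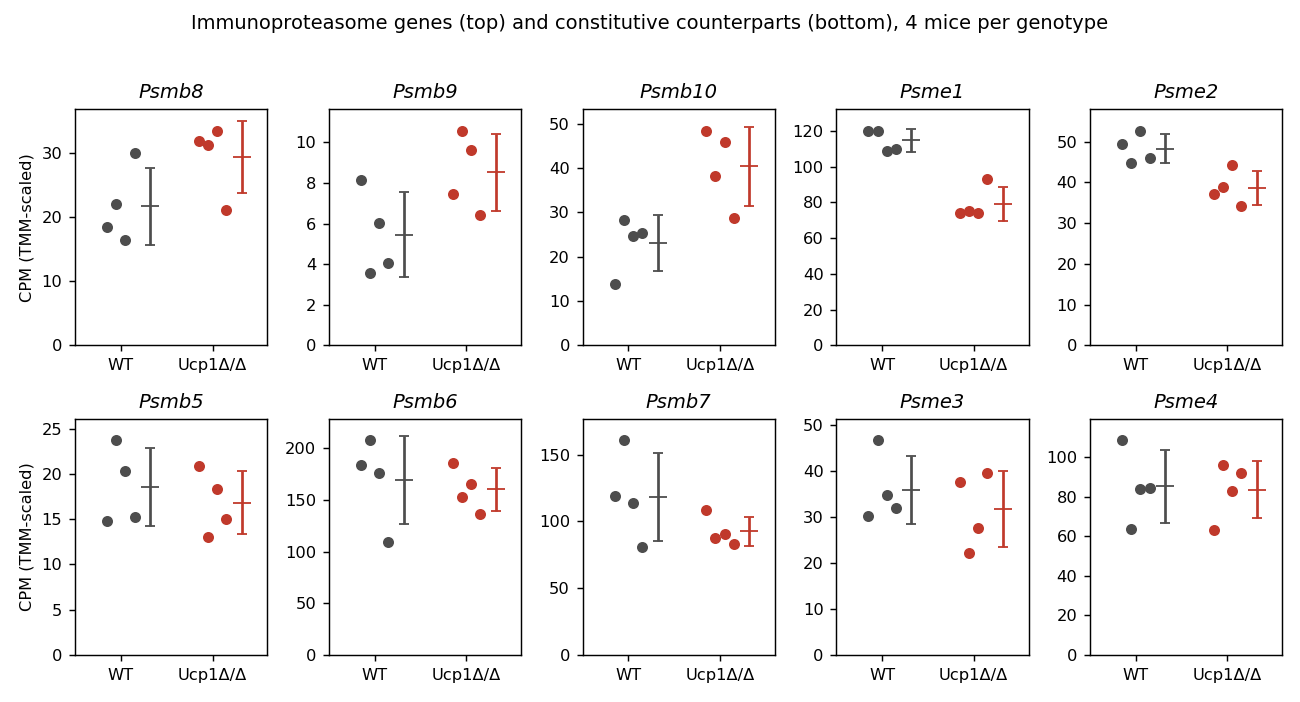
CPM (TMM-scaled) of the 5 immunoproteasome genes (top) and of 5 constitutive genes (bottom), one point per mouse, with the mean and SD of 4 mice. The bottom row holds the replaced catalytic subunits Psmb5, Psmb6 and Psmb7 and the other activators Psme3 and Psme4. Psmb10 lies higher in the Ucp1Δ/Δ mice and Psme1 lower, each with no overlap, whereas the 3 constitutive catalytic subunits overlap between genotypes.

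The constitutive catalytic subunits, whose places the immunoproteasome subunits take, overlapped between genotypes and none was called. Psmb5 was 14.8, 23.7, 20.4 and 15.2 CPM in WT and 20.9, 13.1, 18.4 and 15.02 CPM in Ucp1Δ/Δ mice (log2FC -0.15, 95% interval -0.64 to 0.34). Psmb6 was 184, 208, 176 and 109 CPM in WT and 185, 153, 166 and 137 CPM in Ucp1Δ/Δ mice (log2FC -0.079, -0.50 to 0.34). Psmb7 was 119, 161, 114 and 80.6 CPM in WT and 109, 87.8, 90.3 and 83.3 CPM in Ucp1Δ/Δ mice (log2FC -0.36, -0.79 to 0.071). In Psmb6 and Psmb7, WT replicate 4 was the lowest WT mouse and WT replicate 2 the highest. At an unadjusted p under 0.05 the count of the 3 was 0 as well, by edgeR, and neither DESeq2 nor limma voom called one.

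The contrast between the immunoproteasome and the constitutive core was measured within each mouse, as the log2 ratio of each immunoproteasome subunit to the subunit it replaces. Such a ratio hardly depends on library scaling, but the added prior count of 2 draws it towards 0 where counts are low, as for Psmb9. Only its difference between genotypes is read here, since transcript length may affect its level. For Psmb10 over Psmb7 it was -3.04, -2.48, -2.16 and -1.64 in WT replicates 1 to 4. In Ucp1Δ/Δ replicates 1 to 4 it was -1.15, -1.18, -0.96 and -1.51. All Ucp1Δ/Δ mice were above all WT mice, by 1.13 on average, with p = 0.0286 in a two-sided exact permutation test (n = 4 each, the smallest p this design allows) and 0.0857 after adjustment over the 3 pairs.

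For Psmb9 over Psmb6 the ratio was -4.37, -5.57, -4.70 and -4.50 in WT and -4.50, -3.76, -4.001 and -4.25 in Ucp1Δ/Δ mice, a difference of 0.66 (exact permutation p = 0.0857, adjusted 0.129). For Psmb8 over Psmb5 it was 0.30, -0.11, -0.30 and 0.94 in WT and 0.59, 1.202, 0.84 and 0.46 in Ucp1Δ/Δ mice, a difference of 0.57 (exact permutation p = 0.143, adjusted 0.143). Both pairs overlapped between genotypes. No ratio passed after adjustment with all 8 mice. With a single pair at the smallest p, adjustment over 3 pairs cannot give less than 0.0857, so the design sets this limit for Psmb10 over Psmb7. WT replicate 4 had the highest WT ratio in 2 of the 3 pairs, so leaving this mouse out must widen those differences and is no independent check. Without it the difference was 1.36 for Psmb10 over Psmb7 and 0.81 for Psmb8 over Psmb5, each at the smallest p of the design and with an adjusted exact permutation p of 0.0429 (ranges over all alternatives 0.0429 to 0.171 and 0.0429 to 0.286).

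**Figure D3:**
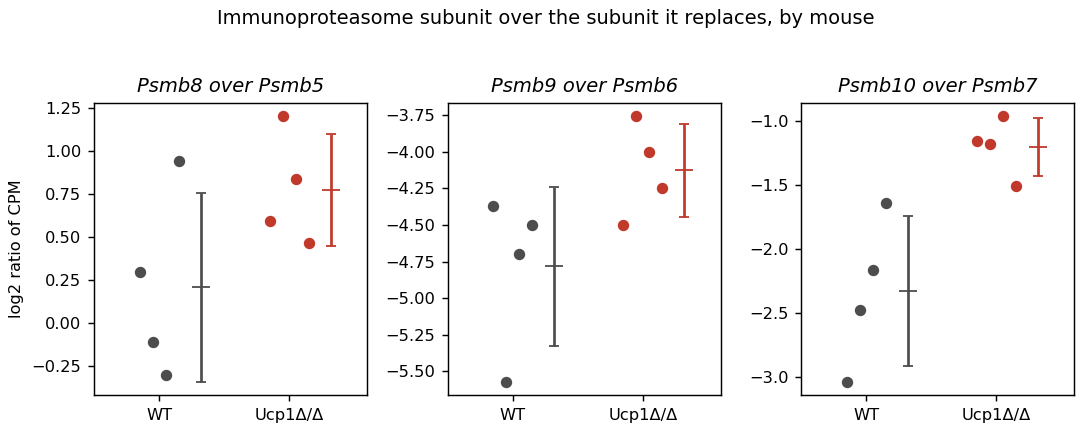
Log2 ratio of the CPM of each immunoproteasome subunit to that of the subunit it replaces, one point per mouse, with the mean and SD of 4 mice beside the points. Only Psmb10 over Psmb7 shows no overlap between WT and Ucp1Δ/Δ mice, with a mean difference of 1.13.

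The constitutive genes gave few calls, all of them lower. Of the 41 tested, 6 were lower, 0 were higher, 35 were not called and 37 had a log2FC below 0, with a median of -0.26. The 6 lower genes are 14.6% of the 41, against 7.63% of all genes. By unadjusted p under 0.05 in edgeR, 10 were lower, against 14.3% of all genes, and 1, Psmd8, was higher, against 18.3%. DESeq2 called 7 lower (16.7%, against 6.38% of all genes) and 0 higher, and limma voom 7 lower (17.1%, against 9.2%) and 0 higher. The CPM of the genotypes did not overlap downwards in 11 of the 41 (26.8%, against 9.37% of all genes) and upwards in 1 (2.44%, against 14.4%). The lower genes were Psma1, Psmb2, Psmd3, Psmd4, Psmd12 and Psmd14, of which 3 are lid subunits.

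In the alpha ring, which gates the core, all 7 tested subunits had a log2FC below 0 (-0.64 to -0.26, median -0.32), and Psma1 passed the test. Psma1 was 77.5, 66.3, 74.8 and 56.7 CPM in WT and 52.0, 42.9, 45.1 and 36.9 CPM in Ucp1Δ/Δ mice. The genotypes did not overlap, and the log2FC was -0.64 (SE 0.17, edgeR adjusted p = 0.0152). Psma2 (-0.38) and Psma7 (-0.27) did not overlap between genotypes either but were not called, and Psma2 passed by DESeq2 (adjusted p = 0.0206) and limma voom (0.0406, range over all alternatives 0.0206 to 0.308). Psma6 (-0.49), the most variable of the ring in WT, ran from 123 CPM in replicate 4 to 274 CPM in replicate 2, and without WT replicate 4 its log2FC was -0.68 with an edgeR adjusted p of 0.0155 (range over all alternatives 0.0155 to 0.282). Psma3, Psma4 and Psma5 lay at -0.32, -0.26 and -0.29.

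In the beta ring, the non-catalytic Psmb2 had the lowest log2FC of the 46 genes. Its counts were low, 24 to 66 per WT mouse and 17 to 26 per Ucp1Δ/Δ mouse. Levels were 14.8, 29.6, 13.4 and 12.2 CPM in WT and 9.20, 8.09, 10.0 and 7.30 CPM in Ucp1Δ/Δ mice. WT replicate 2 stood far above the other WT mice, but the remaining 3 were still above every Ucp1Δ/Δ mouse. The log2FC was -1.01 (SE 0.30, edgeR adjusted p = 0.0235), and without WT replicate 2 it was -0.64 with an edgeR adjusted p of 0.0764. The adjusted p was 0.0649 without Ucp1Δ/Δ replicate 2 and 0.0638 without Ucp1Δ/Δ replicate 4 (edgeR; range over all alternatives 0.00279 to 0.0764). The other non-catalytic beta subunits Psmb1 (-0.32), Psmb3 (-0.33) and Psmb4 (-0.20) were not called, Psmb4 without overlap between genotypes.

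The 19S base holds the ATPases Psmc1 to Psmc6, which form the unfolding motor. None of these 6 was called by edgeR, DESeq2 or limma voom, and 1, Psmc6, had an unadjusted p under 0.05 in edgeR. Their log2FC was -0.062 for Psmc1, -0.099 for Psmc2, 0.060 for Psmc3, -0.33 for Psmc4, -0.17 for Psmc5 and -0.39 for Psmc6. The signs of Psmc1 and Psmc2 turned with scaling by totals alone. Among the non-ATPase subunits of the base, Psmd4, a ubiquitin receptor, was lower. It was measured at 491, 441, 475 and 435 CPM in WT and 347, 316, 309 and 368 CPM in Ucp1Δ/Δ mice, with no overlap (log2FC -0.46, SE 0.15, edgeR adjusted p = 0.0411). Psmd1 (-0.19) and Psmd2 (-0.14), the scaffolds of the base, were not called.

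The 19S lid had the most calls, 3 of 8 subunits (37.5%, against 7.63% of all genes), all lower. All 3 calls were lost without Ucp1Δ/Δ replicate 3 (edgeR adjusted p 0.0629 to 0.0792) and with scaling by totals alone. Psmd14, the deubiquitinase that removes the ubiquitin chain, was 59.7, 47.5, 43.1 and 50.7 CPM in WT and 31.1, 34.8, 25.9 and 36.5 CPM in Ucp1Δ/Δ mice (log2FC -0.64, SE 0.18, edgeR adjusted p = 0.0188). Psmd3 was 95.4, 130, 91.8 and 106 CPM in WT and 73.9, 64.1, 68.5 and 77.7 CPM in Ucp1Δ/Δ mice (log2FC -0.58, SE 0.17, edgeR adjusted p = 0.0234). Psmd12 was 64.3, 64.5, 54.8 and 50.7 CPM in WT and 41.0, 40.1, 38.0 and 42.5 CPM in Ucp1Δ/Δ mice (log2FC -0.53, SE 0.16, edgeR adjusted p = 0.0278). In all 3 genes every Ucp1Δ/Δ mouse was below every WT mouse. Exons of Psmd3, a structural subunit like Psmd12, overlap those of Gm12356 on the opposite strand. The lid also held the gene with the clearest opposite tendency, Psmd8, at 262, 264, 263 and 188 CPM in WT and 400, 294, 317 and 269 CPM in Ucp1Δ/Δ mice. Its genotypes did not overlap, the log2FC was 0.39 (edgeR adjusted p = 0.145) and it passed only with scaling by totals alone (adjusted p = 0.0449, range over all alternatives 0.0449 to 0.361). Psmd6 (-0.41), Psmd7 (-0.059), Psmd11 (-0.36) and Psmd13 (-0.080) were not called, Psmd11 without overlap between genotypes.

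**Figure D4:**
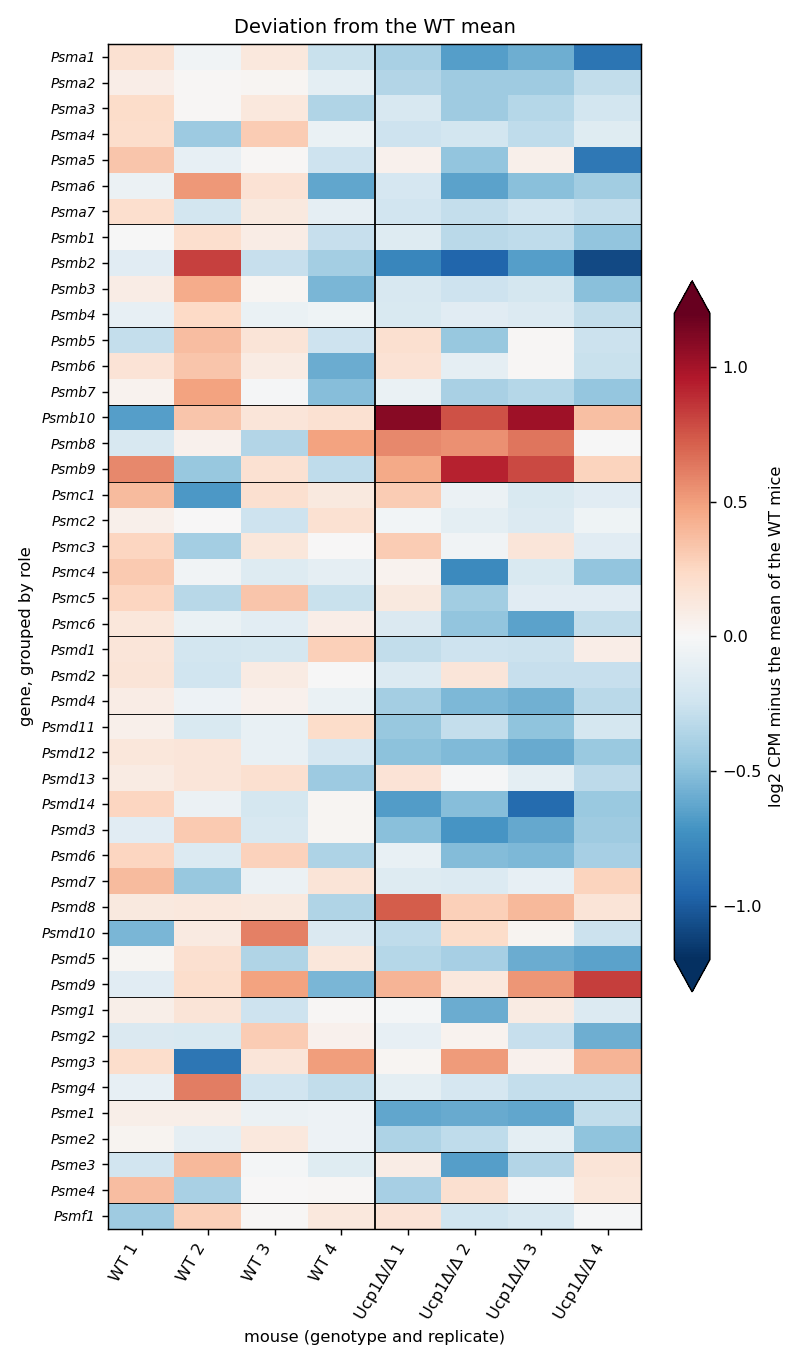
Deviation of each mouse from the mean of the 4 WT mice (log2 CPM) for the 46 tested genes, grouped by role, with WT mice left of the line and Ucp1Δ/Δ mice right of it. Blue is below and red above the WT mean; the immunoproteasome catalytic genes are mostly red and the alpha ring mostly blue in the Ucp1Δ/Δ mice.

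Each of the 6 lower constitutive genes lost its call when certain single mice were left out. Of the 8 such fits, the call held in 6 for Psmd3, in 5 for Psma1, Psmd14 and Psmb2, in 3 for Psmd12 and in 2 for Psmd4. When single mice were dropped one after another, the count of lower proteasome genes ran from 1 to 8. It was 6 (13%, against 8.03% of all genes) without WT replicate 2 and 5 (10.9%, against 5.36%) without WT replicate 3. Without WT replicate 4 the count was 8 (17.4%, against 9.19%). It was 3 (6.52% of the 46, against 6.06% of all genes) without WT replicate 1. Without Ucp1Δ/Δ replicates 1 and 4 it was 3 (6.52%, against 5.93% and 5.14% of all genes), without replicate 3 it was 2 (4.35%, against 5.56%) and without replicate 2 it was 1 (2.17%, against 4.46%). Psma1 was no longer called without WT replicate 3 or Ucp1Δ/Δ replicates 2 or 4 (edgeR adjusted p 0.05, 0.0543 and 0.0606). Psmd14 was no longer called without WT replicate 1 or Ucp1Δ/Δ replicates 1 or 3 (0.0612, 0.0552 and 0.0721), and Psmd3 without Ucp1Δ/Δ replicates 2 or 3 (0.0847 and 0.0629). For Psmd12 this held for WT replicate 1 and each of the 4 Ucp1Δ/Δ replicates (0.0511 to 0.0792), and for Psmd4 for WT replicates 1 and 3 and each Ucp1Δ/Δ replicate (0.0567 to 0.126). Over all alternatives the adjusted p ran from 0.00419 to 0.0606 for Psma1, 0.00814 to 0.0721 for Psmd14, 0.00385 to 0.0847 for Psmd3, 0.0114 to 0.106 for Psmd12 and 0.00112 to 0.151 for Psmd4. The directions of these 5 genes and of Psmb2 held in all of them.

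The activators outside the 11S pair, the inhibitor and the assembly chaperones gave no call by edgeR, DESeq2 or limma voom, and none had an unadjusted p under 0.05 in edgeR. Psme3, which forms a nuclear 11S ring, was 30.1, 46.6, 34.7 and 31.9 CPM in WT and 37.5, 22.1, 27.6 and 39.5 CPM in Ucp1Δ/Δ mice (log2FC -0.19, 95% interval -0.65 to 0.28). Psme4, which encodes the activator PA200, was 109, 63.6, 84.2 and 84.6 CPM in WT and 63.3, 95.8, 83.2 and 92.3 CPM in Ucp1Δ/Δ mice (log2FC -0.026, -0.44 to 0.39). Both overlapped widely. The inhibitor Psmf1 lay at -0.091. Of the chaperones of the 20S core, Psmg1, Psmg2 and Psmg4 lay at -0.16, -0.25 and -0.28 and Psmg3 at 0.20, and of those of the 19S base, Psmd5 lay at -0.52, Psmd10 at -0.14 and Psmd9 at 0.43. Psmd5 had 15 to 27 counts per mouse and Psmd9 14 to 46, and the 95% intervals were wide, from -1.07 to 0.020 for Psmd5 and from -0.13 to 0.99 for Psmd9.

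Among the mice of one genotype, the proteasome genes had a lower median SD than all genes, at levels that were not matched. The median SD of log2 CPM was 0.26 in WT and 0.20 in Ucp1Δ/Δ mice for the 46, against 0.35 and 0.26 for all genes tested, as a description with no test. In 34 of the 46 the SD was larger in WT. Single mice stood at the edge of their group more often than others. WT replicate 1 was the highest WT mouse in 16 of the 46 (34.8%, against 19.8% of all genes). WT replicate 4 was the lowest WT mouse in 17 of the 46 (37.0%, against 30.5%) and the highest in 5 (10.9%, against 28.6%). Ucp1Δ/Δ replicate 1 was the highest Ucp1Δ/Δ mouse in 22 (47.8%, against 25.7%), and Ucp1Δ/Δ replicate 4 the lowest in 19 (41.3%, against 25.3%).

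Genes that work with the proteasome but fall outside the symbol rule were read from the same fit. Their list was chosen with earlier results of these data known, so its shares against all genes are a description and no test. Of 25 partners listed, 24 were tested, 5 were lower (20.8%, against 7.63% of all genes) and 0 were higher by edgeR, DESeq2 or limma voom, also at an unadjusted p under 0.05, and 19 had a log2FC below 0 (median -0.25). The count of lower partners was 1 (4.17%) with scaling by totals alone, without WT replicate 1 and without Ucp1Δ/Δ replicate 4, against 4.52%, 6.06% and 5.14% of all genes. It was 2 (8.33%, against 5.93%, 4.46% and 5.56%) without Ucp1Δ/Δ replicates 1, 2 or 3. Without WT replicates 3 or 4 it was 3 (12.5%, against 5.36% and 9.19%), and without WT replicate 2 it was 6 (25%, against 8.03%). Ubqln1, a shuttle that carries ubiquitylated proteins to the proteasome, was 123, 108, 105 and 102 CPM in WT and 64.4, 62.2, 56.8 and 62.7 CPM in Ucp1Δ/Δ mice. The groups stood far apart, the log2FC was -0.83 (SE 0.15, edgeR adjusted p = 0.00110), and the call held in every alternative run. Usp14, a deubiquitinase of the cap, was 94.3, 80.6, 82.5 and 90.7 CPM in WT and 55.9, 59.7, 68.5 and 44.2 CPM in Ucp1Δ/Δ mice (log2FC -0.61, edgeR adjusted p = 0.0193).

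Ngly1, the glycanase that processes the Nfe2l1 protein, was 25.0, 23.7, 19.03 and 29.9 CPM in WT and 16.6, 16.8, 13.4 and 15.5 CPM in Ucp1Δ/Δ mice (log2FC -0.63, edgeR adjusted p = 0.0385). Adrm1, a ubiquitin receptor of the base, was 51.5, 31.8, 43.8 and 46.1 CPM in WT and 33.6, 24.0, 28.4 and 28.3 CPM in Ucp1Δ/Δ mice (log2FC -0.60, edgeR adjusted p = 0.0386). Adrm1 overlapped between genotypes through WT replicate 2 and Ucp1Δ/Δ replicate 1, whereas Usp14 and Ngly1 did not. Ufd1, a cofactor of the unfoldase Vcp that was added after its value was seen, lay at -0.46 (edgeR adjusted p = 0.0405). Each of these 4 calls was lost without some single mice: Usp14 without WT replicate 1 or Ucp1Δ/Δ replicates 1 or 4 (edgeR adjusted p 0.0507 to 0.0724), Ngly1 without WT replicates 1 or 4 or any one Ucp1Δ/Δ mouse (0.0658 to 0.104), Adrm1 without WT replicates 1, 3 or 4 or Ucp1Δ/Δ replicates 2, 3 or 4 (0.0576 to 0.139), and Ufd1 without WT replicates 1 or 3 or any one Ucp1Δ/Δ mouse (0.0707 to 0.111). Their adjusted p over all alternatives ran from 0.00347 to 0.0727 for Usp14, 0.0279 to 0.110 for Ngly1, 0.00715 to 0.139 for Adrm1 and 0.0103 to 0.165 for Ufd1.

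Nfe2l1 was 177, 130, 138 and 154 CPM in WT and 128, 121, 113 and 126 CPM in Ucp1Δ/Δ mice. Every Ucp1Δ/Δ mouse was below every WT mouse, with a log2FC of -0.29 that did not pass (95% interval -0.64 to 0.048, edgeR adjusted p = 0.223). Pomp, the chaperone that matures the 20S core, was 223, 290, 238 and 222 CPM in WT and 256, 240, 227 and 200 CPM in Ucp1Δ/Δ mice, with overlap (log2FC -0.076, -0.42 to 0.27).

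Proteasome products are carried to the cell surface by the genes of peptide presentation. This list too was chosen with earlier results of these data known, so its shares are no test. Of 9 genes of peptide loading and MHC class I, 4 were higher (44.4%, against 13.3% of all genes), 5 were not called and 0 were lower by edgeR, DESeq2 or limma voom, also at an unadjusted p under 0.05. H2-D1, an MHC class I heavy chain, was 197, 167, 163 and 239 CPM in WT and 342, 385, 306 and 272 CPM in Ucp1Δ/Δ mice (log2FC 0.77, edgeR adjusted p = 0.00587). B2m, the light chain, was 909, 894, 789 and 902 CPM in WT and 1655, 1472, 1195 and 1265 CPM in Ucp1Δ/Δ mice (log2FC 0.68, edgeR adjusted p = 0.00726). Tapbp, which holds the empty heavy chain at the transporter, was 206, 167, 167 and 194 CPM in WT and 287, 284, 263 and 282 CPM in Ucp1Δ/Δ mice (log2FC 0.61, edgeR adjusted p = 0.0102). In each of these every Ucp1Δ/Δ mouse was above every WT mouse, and the calls held in every alternative run.

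H2-K1, another heavy chain, was 191, 163, 176 and 259 CPM in WT and 282, 372, 270 and 275 CPM in Ucp1Δ/Δ mice (log2FC 0.61, edgeR adjusted p = 0.0302). Without any one of WT replicates 1, 2 or 3 or Ucp1Δ/Δ replicates 1, 2 or 4 it was no longer called (edgeR adjusted p 0.0507 to 0.114, range over all alternatives 0.00592 to 0.114). H2-D1 and H2-K1 are close paralogs, and reads shared between them could have been split. Tap1, which neighbours Psmb8 and Psmb9, lay at 0.60 (edgeR adjusted p = 0.109) and passed only with scaling by totals alone (0.0486, range over all alternatives 0.0486 to 0.276). Tap2 lay at 0.18 and was not called.

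Of 13 genes of interferon signalling, the inputs to the immunoproteasome genes, 12 were tested, 4 were higher (33.3%, against 13.3%) and 0 lower by edgeR and limma voom. The list was again chosen with earlier results of these data known, so these shares are no test. Ifnar2 alone had a log2FC below 0 at an unadjusted p under 0.05 (-0.35), and DESeq2 called it. Irf8, a transcription factor of myeloid cells, was 5.10, 3.14, 1.67 and 5.07 CPM in WT and 19.5, 23.0, 18.8 and 20.6 CPM in Ucp1Δ/Δ mice (log2FC 2.51, edgeR adjusted p = 2.61e-05). Jak1, a kinase of the interferon receptors, was 139, 121, 119 and 129 CPM in WT and 185, 192, 189 and 201 CPM in Ucp1Δ/Δ mice (log2FC 0.59, edgeR adjusted p = 0.0103). Both stood apart without overlap and were called in every alternative that tested them. Ifngr1, a chain of the interferon gamma receptor, was 97.9, 100.4, 57.4 and 96.2 CPM in WT and 131, 141, 116 and 163 CPM in Ucp1Δ/Δ mice (log2FC 0.65, edgeR adjusted p = 0.0298). Irf7, which drives type I interferon genes, was 4.59, 5.82, 4.01 and 1.52 CPM in WT, from 3 to 13 counts, and 9.55, 8.71, 10.9 and 6.01 CPM in Ucp1Δ/Δ mice (log2FC 1.12, edgeR adjusted p = 0.0341).

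The Ifngr1 call was lost without WT replicate 3, its lowest mouse, or Ucp1Δ/Δ replicates 2 or 4 (edgeR adjusted p 0.0684 to 0.105, range over all alternatives 0.00798 to 0.105). That of Irf7 was lost without WT replicates 1, 3 or 4 or Ucp1Δ/Δ replicates 1, 2 or 3 (0.0583 to 0.0855, range over all alternatives 0.0178 to 0.0855) and with DESeq2 (adjusted p = 0.0666), which called 3 genes of the list higher. The count of higher genes in the list was 2 without Ucp1Δ/Δ replicate 2. Irf1, a factor known to act on the immunoproteasome promoters, lay at 0.51 and was not called (edgeR adjusted p = 0.0957). It passed only with scaling by totals alone (0.0423, range over all alternatives 0.0423 to 0.289).

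**Figure D5:**
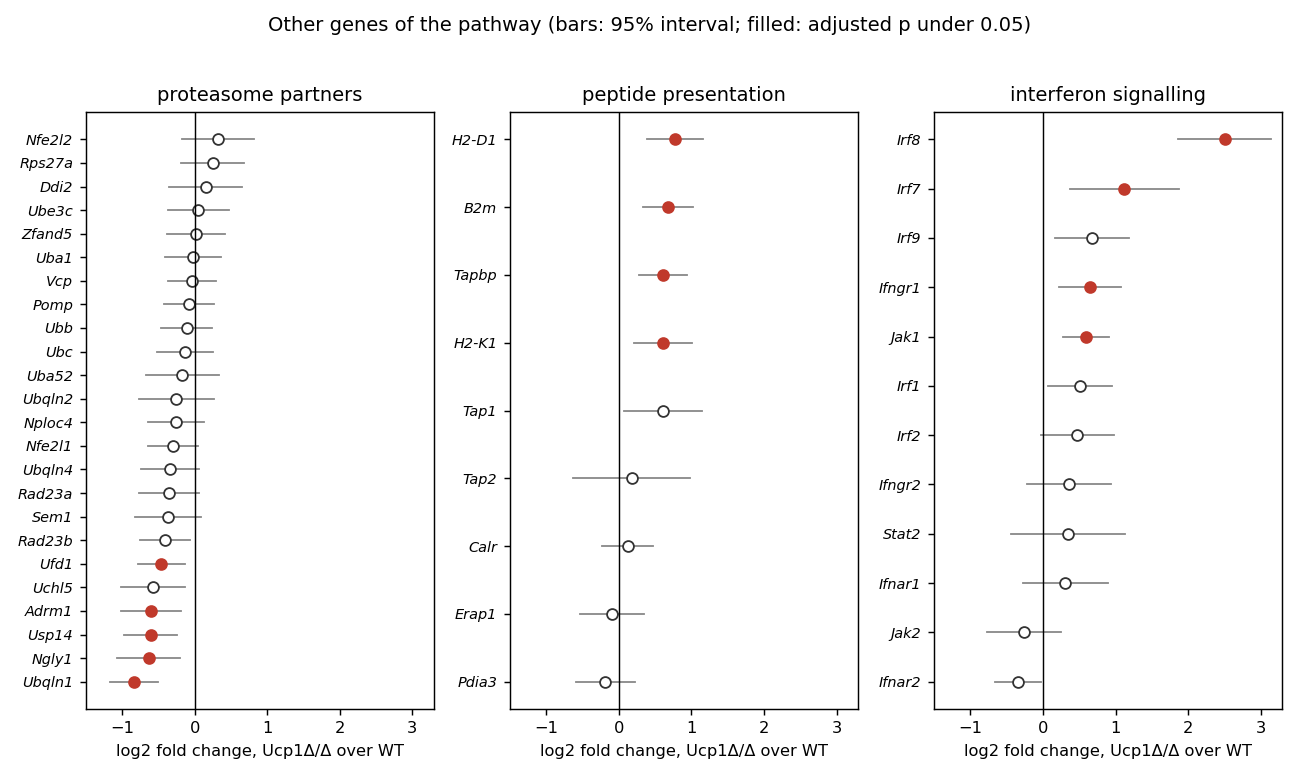
Log2 fold change (Ucp1Δ/Δ over WT) with 95% intervals for the tested genes of 3 lists: 24 proteasome partners, 9 genes of peptide presentation and 12 of interferon signalling. Filled points passed the test; the 5 filled partners lie below 0, and the 4 filled genes in each of the other lists lie above 0.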

How the data were processed

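RNA was extracted from BAT of 8 mice, and digital mRNA-seq libraries were sequenced single-end. The counts per gene are those deposited by the authors, as whole numbers without normalization. The study's methods name bbduk, STAR, mm10 and HTseq-counts, whereas the submitters' processing notes name Trimmomatic, HISAT2, DESeq2 and the builds GRCm38 and mm10. The strand setting and the annotation release are not given in the sources used here. A deposited log2 table, computed from these counts, was not used. Gene symbols and coordinates came from GENCODE M21 (mm10), which gave a symbol for 30934 of 31053 genes. Promoter windows came from RefSeq (GRCm38.p6).

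Counts were filtered with filterByExpr, scaled by TMM and fitted with edgeR 4.0.16 in R 4.3.3 (glmQLFit and glmQLFTest, genotype only). P-values were adjusted by Benjamini-Hochberg over all 8930 genes tested, with a threshold of 0.05. Ratios were log2 CPM differences with a prior count of 2, compared between genotypes with an exact permutation test (two-sided, over mice). Alternatives used DESeq2 1.42.0, limma 3.58.1 (voom with sample quality weights), other scalings and filters, a replicate block, removal of mitochondrially encoded genes, a prior count of 0.5 and each mouse left out in turn. The labels do not say that replicates were separate litters or extractions. Any 2 libraries of one genotype differed by more than sampling noise (chi-square per degree of freedom 4.69 to 23.2), so all were kept. Floors cover counting error only, and the use of molecular identifiers is not given in the sources used here.

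The genes and lists (proteasome partners, peptide presentation, interferon signalling and the cell type markers) were chosen with earlier results of these data known. Named with values in every mouse were Pnpla2, the 5 immunoproteasome genes, Psmb5, Psmb6, Psmb7, Psme3, Psme4, all other proteasome genes past the threshold, those with the highest and lowest log2FC, Nfe2l1, Pomp and, in each list, the 4 genes of smallest adjusted p in each direction. Psmd8, Ufd1, Tap1, Tap2, Irf1 and Ifnar2 were added after their values were seen. One gene of the interferon list is not reported here.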

Additional observations from a re-analysis of the deposited data

Results flagged for a closer look

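In groups of 4 mice, a mouse was taken as standing apart when its gap to the nearest other mouse, divided by the range of the group on the log2 CPM scale, exceeded 0.829. Of 138 groups examined, 10 met this, and 6.9 would be reached by chance at 1 in 20. Of the 10, 4 were in Ucp1Δ/Δ replicate 4. It was low for Psmb8 (gap 0.844 of the range, log2 CPM 4.45 against 4.996 to 5.10 in the others) and high for Psme1 (0.94, 6.55 against 6.22 to 6.24), Psmd1 (0.874, 7.26 against 6.88 to 6.92) and Psmd7 (0.853, 7.69 against 7.26 to 7.33). For Psmb8 and Psme1 the distance was towards the WT mice. WT replicate 4 was low for Psmd8 (0.975, 7.56 against 8.04 to 8.05) and Psmd13 (0.853, 6.74 against 7.27 to 7.36). WT replicate 2 was high for Psmb4 (0.862, 7.495 against 7.16 to 7.21). WT replicate 3 was low for B2m (0.879, 9.63 against 9.80 to 9.83) and Ifngr1 (0.925, 5.86 against 6.60 to 6.66), and Ucp1Δ/Δ replicate 2 was high for H2-K1 (0.872, 8.54 against 8.08 to 8.14). What sets these mice apart was not tested.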

How the results depend on the processing

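Of the 46 tested proteasome genes, 24 kept their call and direction in every alternative run. With scaling by totals alone, 2 proteasome genes, 1 of them constitutive, were higher, against 16.6% of all genes. Lower were 1 proteasome gene (2.17%), which was constitutive, 0 immunoproteasome genes and 1 partner (4.17%), against 4.52% of all genes. Requiring at least 10 counts in every mouse left 4 proteasome genes (8.89%), 0 immunoproteasome genes and 2 partners (8.33%) lower, against 6.48% of all genes. DESeq2 called 1 interferon gene lower, against 6.38% of all genes. Leaving out each mouse gave 0 to 1 proteasome genes higher and 1 to 8 lower, 0 to 1 immunoproteasome genes higher and 0 to 1 lower, 1 to 7 constitutive genes lower, 1 to 6 partners lower and 2 to 4 interferon genes higher. The difference in ratio ran from 0.89 to 1.36 for Psmb10 over Psmb7, from 0.40 to 0.80 for Psmb9 over Psmb6 and from 0.40 to 0.81 for Psmb8 over Psmb5. Fewer mice lower what a fit can call, and otherwise the cause was not tested.

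Uncalled genes near 0 changed sign. With totals alone, log2FC was 0.057 for Psmb6, 0.12 for Psme4, 0.065 for Pomp, 0.067 for Psmc1, 0.041 for Psmc2, 0.0020 for Psmd10, 0.056 for Psmd13, 0.0016 for Psmd2, 0.076 for Psmd7 and 0.048 for Psmf1. With at least 10 counts it was 0.043 for Psme4, 0.0037 for Psmc1 and 0.0081 for Psmd7, and with limma voom -0.040 for Psmc3 and 0.011 for Psmf1. With single mice left out, log2FC ran from -0.25 to 0.024 for Psmb6, -0.15 to 0.099 for Psme4, -0.13 to 0.0078 for Pomp, -0.25 to 0.053 for Psmc1, -0.069 to 0.14 for Psmc3, -0.20 to 0.067 for Psmd7, -0.31 to 0.11 for Psmd10, -0.033 to 0.37 for Psmg3 and -0.052 to 0.52 for Tap2.

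The deviations of same-numbered mice from their genotype means had correlations of -0.087, -0.20, 0.30 and 0.24 for replicates 1 to 4. Only replicate 3 correlated best with its own number. With 4 such values, whether the numbers pair the mice cannot be settled. With the replicate number as a block, 1 proteasome gene was higher, against 12.7% of all genes. Lower were 5 proteasome genes (10.9%), of which 4 constitutive, and 4 partners (16.7%), against 6.51% of all genes. Psmd12 (adjusted p = 0.0511) and Psmd4 (0.0671) were not called by edgeR. The block gave 1138 genes higher and 581 lower among all tested.

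Depth limits the low genes most: a tested proteasome gene had as few as 8 counts in a mouse.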
